A study of Homo sapiens with 34 samples.

Results

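The genes described here are 6 of the 29324 genes with an intron in the deposited junction table: SERPINB2, SERPINB7, SERPINE2, PLAU, PLAUR and PLAT, taken by name. SERPINB2, SERPINE2, PLAU, PLAUR and PLAT belong to the system that turns plasminogen into plasmin, and SERPINB7 codes for a relative of SERPINB2. SERPINB2 and SERPINB7 in all comparisons, and PLAU in the FNBP4 intron deletion, were chosen by their fold changes between edited and control libraries in earlier results of these data. Their expression is therefore described without a test, while SERPINE2, PLAUR and PLAT, and PLAU elsewhere, were tested with all other genes. Each of the 6 passed the filter on low counts.

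Plasmin is a protease that dissolves fibrin and breaks down extracellular matrix. It is cut from plasminogen by the tissue-type activator (gene PLAT), which acts mostly on fibrin, or by urokinase (PLAU), which acts at the cell surface when bound to its receptor (PLAUR). Serpins, inhibitors that trap a protease after it cuts them, hold the activators in check. Retinal pigment epithelium secretes several of these proteins, and SERPINB2 is known elsewhere as a gene that inflammatory and stress signals induce strongly.

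The cells were hTERT RPE-1, which derive from human retinal pigment epithelium and were immortalised with telomerase. Cells received a lentivirus coding for a hybrid guide RNA (hgRNA), in which a Cas9 guide is joined to a Cas12a guide so that 1 transcript directs cuts at 2 sites. They were selected as pools with puromycin, and total RNA was sequenced after removal of ribosomal RNA. The labels give the same puromycin dose, selection time and time of growth for all libraries. The series holds 34 libraries, 2 biological duplicates for each of 17 hgRNAs, and the sources do not say whether duplicates came from separate transductions.

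Intronic deletions were made in DDX5 with 2 hgRNAs and in HNRNPD with 1. FNBP4 had an intronic deletion (hgRNAs 1 and 2) and a deletion across an exon that brings in a premature stop codon (the PTC exon, hgRNAs 3 and 4). DDX17 and HDAC7 had deletions across a PTC exon with 2 hgRNAs each. The sample titles call all of these, and the PTC exon deletion of FNBP4, intronic deletions. Below, the PTC exon deletion is that of FNBP4 alone. Knockouts of DDX5, DDX17, FNBP4 and HDAC7 had 1 hgRNA each, described as an exonic Cas9 guide with an intergenic Cas12a guide, but for HDAC7 the labels repeat the Cas9 guide in place of a Cas12a guide. The controls were 2 hgRNAs that cut between genes, with 4 libraries in all. An edit is thus represented by 4 libraries where it had 2 hgRNAs, and by 2 otherwise. Every comparison is made against the same 4 controls, so the comparisons are not independent of each other.

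The labelled guides matter for reading these groups, so those that groups share or that match an unexpected gene are shown. Guides are in lower case, 5′ to 3′, and the capitals mark the adjoining PAM read from GENCODE v29 transcripts. FNBP4 hgRNA 2 (intron) and hgRNA 3 (PTC exon) carried the same Cas9 guide, which matched a noncoding part of an FNBP4 transcript at chr11:47731955-47731974 on the minus strand (GRCh38). The knockouts of FNBP4 and of HDAC7 were labelled with the same Cas9 guide, which lies in coding sequence of FNBP4 at chr11:47751245-47751264 on the minus strand. The Cas9 guide of DDX17 deletion hgRNA 1 matched a noncoding part of a PFN1 transcript at chr17:4947345-4947364 on the minus strand.
FNBP4 hgRNAs 2 and 3, Cas9: tgtgaattccacggtccaagAGG
FNBP4 hgRNA 3, Cas12a: tccaatgtgtggctggccaaact
FNBP4 and HDAC7 knockouts, Cas9: gaagtctgggatgagaacacGGG
DDX17 hgRNA 1, Cas9: ctttcccggaaagcccccagGGG
The Cas12a guide of hgRNA 3 matched FNBP4 at chr11:47732365-47732387 on the plus strand. Both HDAC7 deletion hgRNAs also shared a Cas9 guide. The library labelled HDAC7 knockout is called so below, although no listed guide of it matched HDAC7.

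A gene's level is given as the count of reads across its spliced exon junctions scaled to the depth of the library (CPM), with 12353936 to 20233610 reads per library. Of the edited genes, DDX5 averaged 406 CPM in its deletion and 150 CPM in its knockout, against 552 CPM in controls, and DDX17 averaged 308 CPM in its knockout, against 415 CPM. FNBP4 averaged 124 CPM in the PTC exon deletion, against 39.7 CPM in controls. The other 6 edits did not pass the test for their own gene. Markers of the visual cycle and of pigment in differentiated epithelium were near 0, with a mean of 0.0898 CPM for RPE65, 0.108 for BEST1 and 0 for TYR, while the transcription factors MITF (16.9 CPM) and OTX2 (3.90 CPM) were present and KRT8 (594), KRT18 (476) and VIM (8050) were high. Of keratinocyte markers, KRT5 (0.00398 CPM) and TP63 (0.0238) were near 0 and KRT10 had 2.46 CPM. Of macrophage markers, CD14 (0.0141 CPM) was near 0 and TYROBP at 0, while CD68 had 33.3 CPM and CSF1R 6.18 CPM. The first replicate of each knockout stood apart in reads that cross from an exon into an intron, 1.91 to 2.38% of junction reads, against 3.66 to 5.90% in all other libraries.

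Per length, the 6 genes fell into levels far apart in control cells. In the authors' deposited table, whose RPKM values (scaled to depth and transcript length) combine the control libraries, SERPINE2 stood at 130.57, PLAU at 130.55 and PLAT at 123.09. PLAUR stood at 39.95 RPKM, SERPINB2 at 10.02 and SERPINB7 at 2.82 RPKM. With no replicates behind these values, the first 3 cannot be ordered.

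Across the 10 edits, SERPINB2 and SERPINB7 moved over the widest range, PLAT was raised in 6, SERPINE2 was lowered in 5, PLAU was lowered in 2 of the 9 tested, and PLAUR was called in none. A gene was called past an adjusted p of 0.05 over 12081 genes. In the DDX5 deletion PLAT and SERPINE2 were called, where 16.9% of all genes were. In the DDX17 deletion PLAT alone was called, against 4.98% of all genes. In the FNBP4 intron deletion PLAT and SERPINE2 were called, against 3.53%. In the PTC exon deletion SERPINE2 alone was called, against 26.9%. In the HDAC7 deletion PLAT alone was called, against 1.90%, and in the HNRNPD deletion SERPINE2 alone, against 8.87%. Among knockouts, PLAT was called in that of DDX5, against 9.99% of genes, PLAT and PLAU in that of FNBP4, against 8.20%, and SERPINE2 and PLAU in that of HDAC7, against 6.50%. None of the 4 tested genes was called in the DDX17 knockout (limma, lowest adjusted p = 0.106, for PLAU), against 1.76% of genes. With 4 genes tested, these shares say little about the set.

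**Figure D1:**
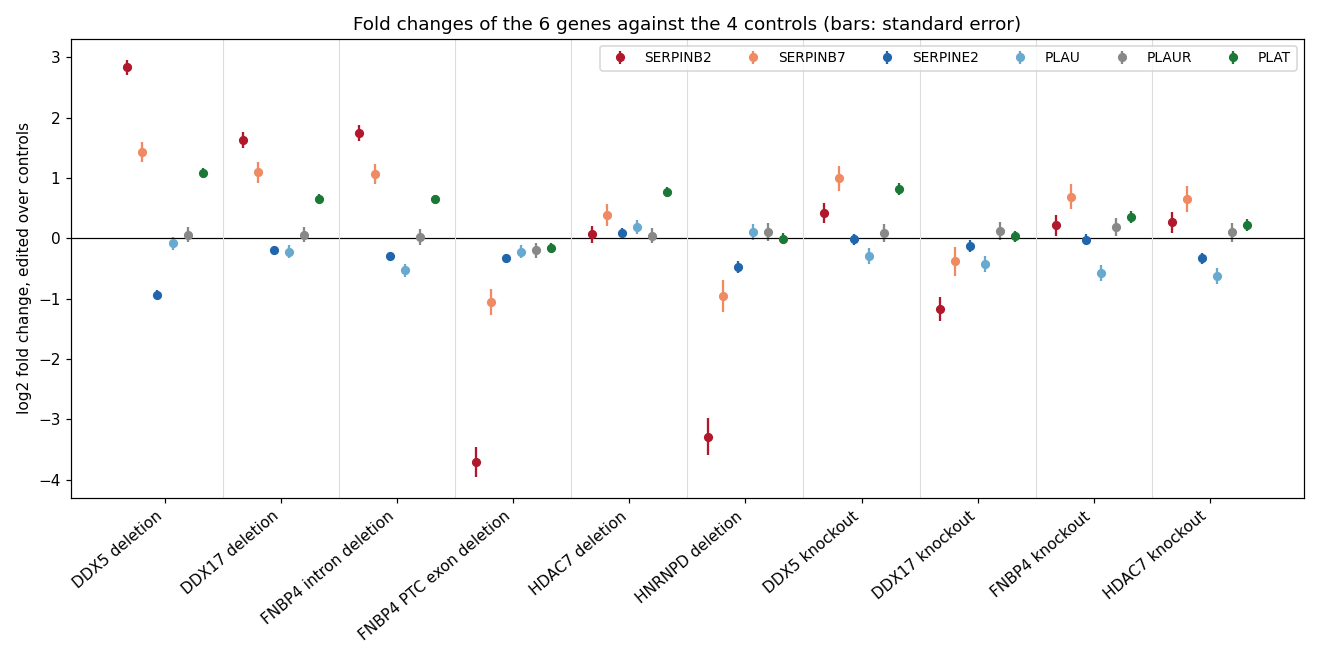
Log2 fold change of the 6 genes in each edit over the 4 control libraries, with standard errors from the fit across all genes. SERPINB2 lies highest in the DDX5 deletion (2.83) and lowest in the FNBP4 PTC exon deletion (-3.71), and PLAUR stays within 0.20 of zero in all 10 edits.

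SERPINB2 codes for plasminogen activator inhibitor type 2, which inhibits urokinase. It was highest in the DDX5 deletion, with 168.2 and 180.3 CPM under hgRNA 1 and 88.77 and 96.72 CPM under hgRNA 2, against 15.98, 13.19, 19.31 and 24.55 CPM in controls. All 4 edited libraries lay above all controls, as edited and control libraries did not overlap for 33.5% of all genes there, and hgRNA 1 was well above hgRNA 2. The fold was 7.12 (log2 2.83 ± 0.13, SE).

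The gene was next highest in the FNBP4 intron and DDX17 deletions. SERPINB2 had 58.89, 52.43, 58.43 and 70.67 CPM in the FNBP4 intron deletion, 3.35-fold over controls. It had 58.66, 54.49, 42.71 and 66.12 CPM in the DDX17 deletion, 3.08-fold over controls. The libraries of these edits overlapped each other and lay above every control, where 19.8% and 13.4% of all genes had no overlap. In the DDX17 deletion hgRNA 1, whose Cas9 guide matched PFN1, did not differ from hgRNA 2 beyond the spread of their libraries.

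SERPINB2 lay below the whole control range in 3 edits. In the FNBP4 PTC exon deletion it had 2.006 and 1.887 CPM under hgRNA 3 and 0.940 and 0.902 CPM under hgRNA 4, which were 30, 37, 17 and 17 reads, against 219 to 455 reads in controls. In the HNRNPD deletion it had 1.919 and 1.669 CPM (34 and 26 reads). The log2 fold changes were -3.71 ± 0.25 and -3.29 ± 0.30 (SE), and counting error weighs more on these few reads than on the control values. The DDX17 knockout gave 8.079 and 7.786 CPM, a log2 fold change of -1.17 ± 0.20. Edited and control libraries did not overlap for 33.8%, 38.9% and 29% of all genes in these 3 comparisons.

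In the remaining edits SERPINB2 lay inside or at the edge of the control range. It had 20.75, 14.78, 18.39 and 21.12 CPM in the HDAC7 deletion and 21.28 and 26.86 CPM in the DDX5 knockout. It had 21.05 and 20.28 CPM in the FNBP4 knockout and 21.84 and 21.03 CPM in the HDAC7 knockout. Libraries of all 4 edits overlapped the controls.

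Edits of the same gene gave SERPINB2 levels far apart. In FNBP4 the intron deletion averaged 60.1 ± 7.63 CPM, against 1.43 ± 0.594 CPM in the PTC exon deletion (SD, n = 4 each) and 20.7 ± 0.545 CPM in the knockout (n = 2). The 2 hgRNAs with a common Cas9 guide gave 58.43 and 70.67 CPM in the intron deletion (hgRNA 2) and 2.006 and 1.887 CPM in the PTC exon deletion (hgRNA 3). For DDX5 the deletion averaged 134 CPM and the knockout 24.1 CPM, and for DDX17 the deletion averaged 55.5 CPM and the knockout 7.93 CPM. These differences were not tested, since the values had chosen the gene.

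**Figure D2:**
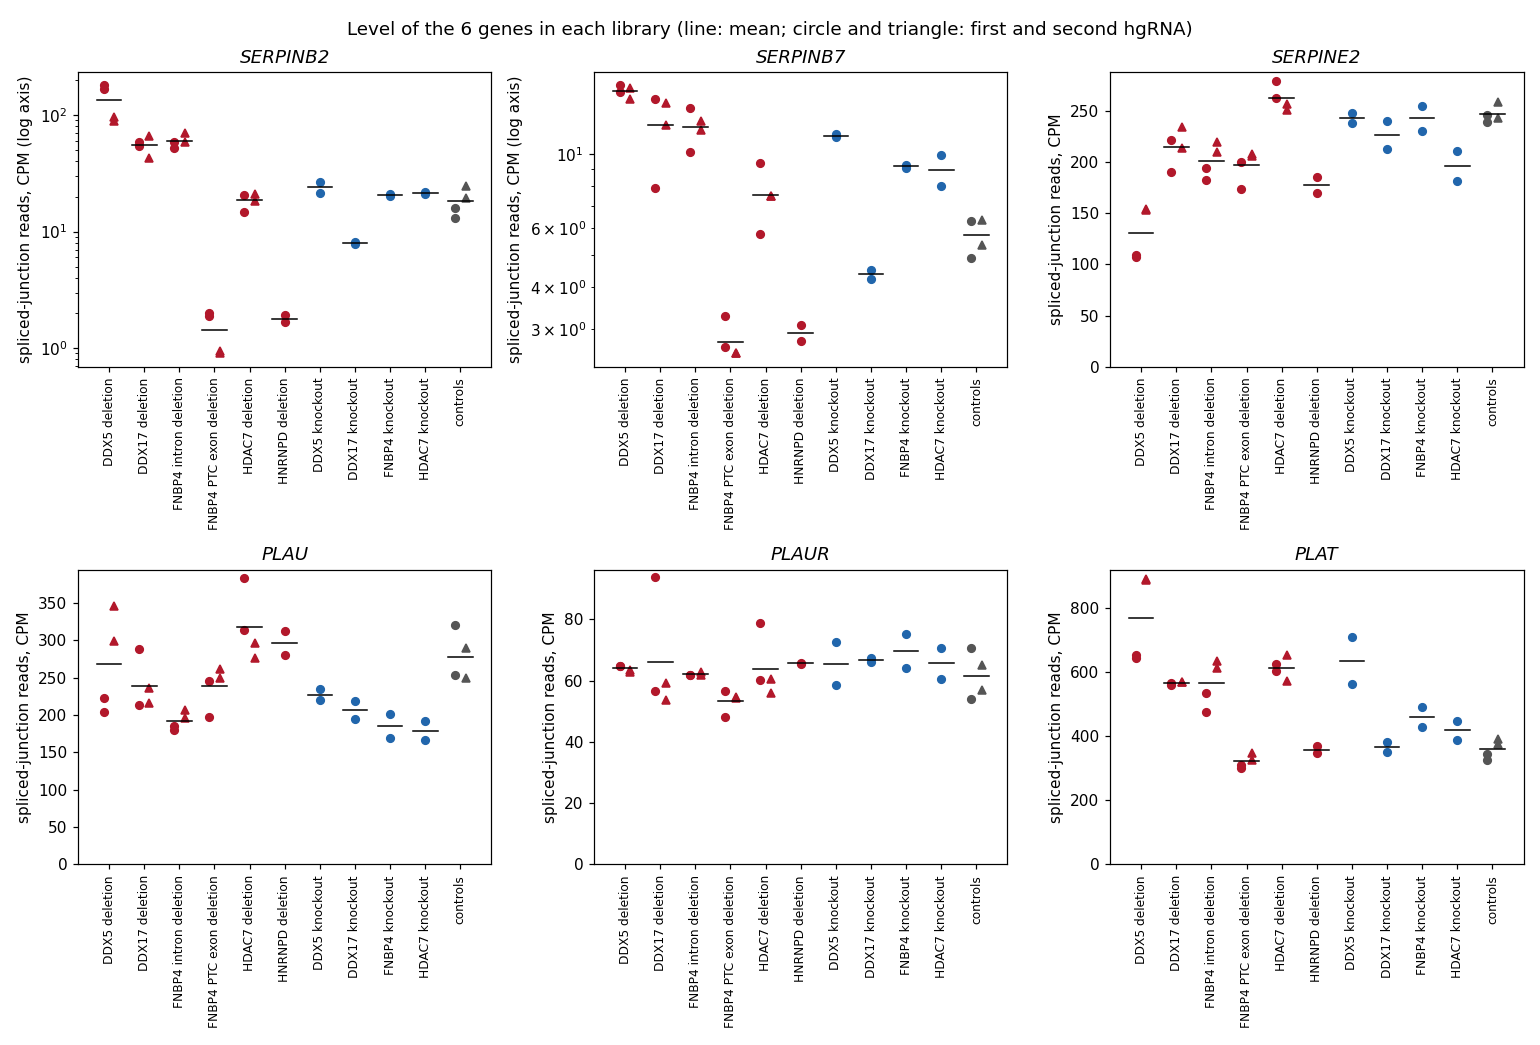
CPM of each gene in each library, by edit, with controls at the right and a line at the mean. Circles and triangles mark the first and second hgRNA of an edit, and SERPINB2 and SERPINB7 are on log axes. SERPINB2 and SERPINB7 are low in the same 2 deletions (PTC exon and HNRNPD) and high in the same 3 (DDX5, DDX17 and FNBP4 intron).

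SERPINB7 codes for megsin, a relative of SERPINB2 described in kidney mesangial cells and in skin, and the genes lie near each other on chromosome 18. The introns of SERPINB7 that carried reads span chr18:63775717-63804236 and those of SERPINB2 chr18:63887771-63902900, both on the plus strand. Its level followed that of SERPINB2 with a smaller range. It had 15.28, 16.02, 14.57 and 15.71 CPM in the DDX5 deletion, against 6.306, 4.879, 6.343 and 5.343 CPM in controls, and 2.69-fold over controls. Here the 2 DDX5 hgRNAs were alike, unlike for SERPINB2.

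SERPINB7 averaged 12.2 ± 3.06 CPM in the DDX17 deletion and 12.0 CPM in the FNBP4 intron deletion (10.15 to 13.73 CPM), against 5.72 ± 0.726 CPM in controls (SD, n = 4 each). It was low in the PTC exon deletion (3.276, 2.652, 2.543 and 2.547 CPM) and in the HNRNPD deletion (2.765 and 3.081 CPM). In the HDAC7 deletion it had 9.372, 5.779, 7.483 and 7.468 CPM, and overlapped the controls. In all 4 knockouts its libraries lay outside the control range, whereas those of SERPINB2 did so in the DDX17 knockout alone. SERPINB7 had 11.46 and 11.23 CPM in the DDX5 knockout, 9.285 and 9.093 CPM in that of FNBP4 and 8.045 and 9.918 CPM in that of HDAC7, all above controls, and 4.509 and 4.237 CPM in that of DDX17, below them. Edited and control libraries did not overlap for 36.9%, 35.3%, 35.5% and 29% of all genes in these 4 comparisons.

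Over the 17 group means of log2 CPM, SERPINB2 and SERPINB7 had a Pearson correlation of 0.96, SERPINB2 and PLAT 0.79, and SERPINB7 and PLAT 0.85 (n = 17 groups). SERPINB2 had correlations of -0.29 with SERPINE2, -0.18 with PLAU and 0.39 with PLAUR. The points share the scaling between libraries and hgRNAs of 1 edit resemble each other, so these are descriptions. SERPINB2 and SERPINB7 were both chosen by their fold changes in these data, so their likeness to each other is not independent of that choice. Of 9460 genes compared, the 8 most like SERPINB2 were SERPINB7, MPP4, DAW1, LIPH, RAI14, TXNRD1, SVEP1 and ANKRD13A, with correlations of 0.95 to 0.96. SVEP1, a secreted matrix protein, averaged 23.6 CPM in the DDX5 deletion and 2.05 CPM in the HNRNPD deletion, against 7.54 CPM in controls. TXNRD1, thioredoxin reductase, averaged 2680 CPM in the DDX5 deletion, 808 CPM in the PTC exon deletion and 756 CPM in the HNRNPD deletion, against 1370 CPM in controls. The genes most like SERPINB7 were ABCC9 (0.98), DAW1 (0.98) and TXNRD1 (0.97).

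**Figure D3:**
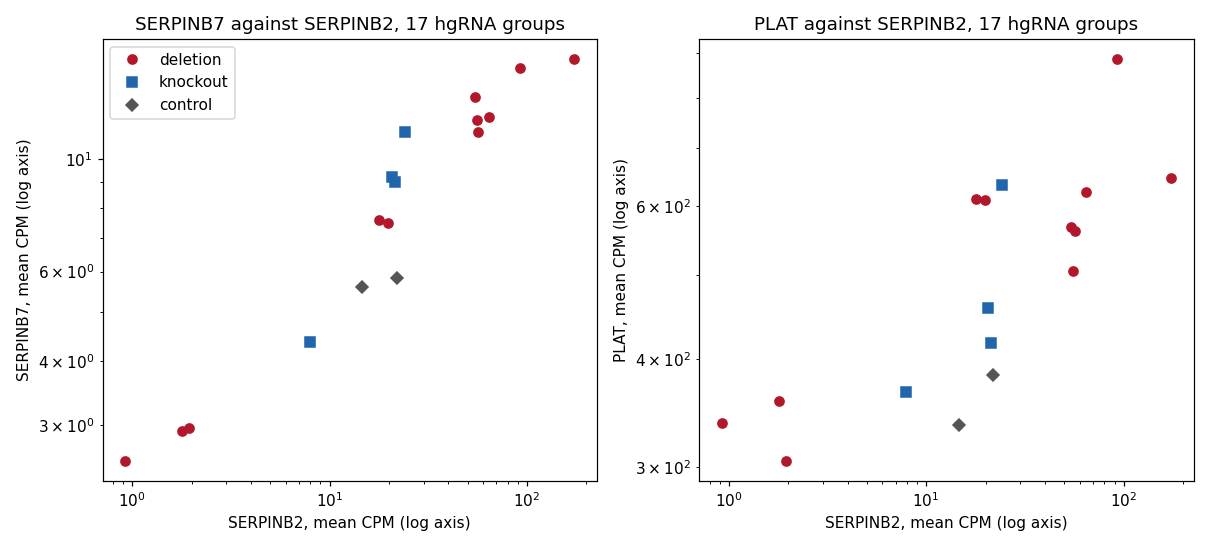
Mean CPM of SERPINB7 (left) and PLAT (right) against that of SERPINB2 in the 17 hgRNA groups, all on log axes. SERPINB7 is low where SERPINB2 is lowest and high where SERPINB2 is highest. Between these, groups with like SERPINB2 (21.9 CPM in control hgRNA 2, 24.1 CPM in the DDX5 knockout) differ in SERPINB7 (5.84 and 11.3 CPM). PLAT stays near its control level in the 3 groups in which SERPINB2 is lowest.

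The 250 bases upstream of the SERPINB2 start, and of the SERPINB7 start whose first intron carried reads, are shown because these genes had like patterns. Sequences are RefSeq's (GRCh38.p14), 5′ to 3′ on the plus strand. Capitals mark matches on either strand to TGANTCA, the core site of AP-1 (FOS and JUN proteins), and to TATAAA, the TATA box.
SERPINB2 (chr18:63887455-63887704): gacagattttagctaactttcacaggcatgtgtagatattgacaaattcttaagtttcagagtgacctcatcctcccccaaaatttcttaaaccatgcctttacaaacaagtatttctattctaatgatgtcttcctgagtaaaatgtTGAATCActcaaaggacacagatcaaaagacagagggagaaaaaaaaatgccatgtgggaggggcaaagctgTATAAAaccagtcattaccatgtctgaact
SERPINB7 (chr18:63775168-63775417): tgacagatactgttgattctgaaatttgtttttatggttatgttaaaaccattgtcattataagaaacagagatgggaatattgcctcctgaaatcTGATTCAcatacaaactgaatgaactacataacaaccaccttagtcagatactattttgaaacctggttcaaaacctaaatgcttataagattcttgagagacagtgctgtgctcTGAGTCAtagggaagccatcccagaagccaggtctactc
SERPINB2 held TGANTCA 102 bases and TATAAA 30 bases before its start, and SERPINB7 held TGANTCA 154 and 39 bases before this start and no TATAAA. Of 35116 promoter windows of this length, 6.57% held TGANTCA and 10.7% held TATAAA. The PLAUR window, the gene called in no edit, also held TGANTCA, and those of PLAU and SERPINE2 did not. None of these windows of SERPINB2, SERPINB7 and PLAUR held TGACGTCA or CACGTG, which 1.65% and 6.34% of windows held. The motifs do not overlap in these windows, and a match is a run of letters and shows no binding.

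PLAT codes for tissue-type plasminogen activator. It rose in the DDX5, DDX17, FNBP4 intron and HDAC7 deletions and in the DDX5 and FNBP4 knockouts. In the DDX5 deletion PLAT had 643.1, 650.7, 884.9 and 888.7 CPM, against 344.8, 324.8, 390.0 and 376.5 CPM in controls, a log2 fold change of 1.08 ± 0.08 (SE, adjusted p = 5.18e-09). Here hgRNA 2 was above hgRNA 1, the reverse of SERPINB2.

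In the DDX17 deletion PLAT had 557.7, 564.9, 569.2 and 566.8 CPM (log2 0.66 ± 0.08, adjusted p = 1.75e-05). In the FNBP4 intron deletion it had 533.3, 475.7, 613.3 and 633.4 CPM (log2 0.65 ± 0.08, adjusted p = 2.59e-05). In the HDAC7 deletion, where SERPINB2 was at the control level, PLAT had 623.1, 601.0, 650.7 and 570.3 CPM (log2 0.77 ± 0.08, adjusted p = 7.69e-06). All edited libraries of these 3 edits lay above all controls. Edited and control libraries did not overlap for 13.4, 19.8 and 10.8% of all genes in the DDX17, FNBP4 intron and HDAC7 deletions. With the HDAC7 deletion and control libraries fitted alone the call was lost (adjusted p = 0.0525), at the same log2 fold change of 0.77.

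PLAT averaged 634 ± 104 CPM in the DDX5 knockout (log2 0.81 ± 0.10, adjusted p = 1.36e-05) and 458 ± 43.7 CPM in the FNBP4 knockout (log2 0.35 ± 0.10, adjusted p = 0.0241), against 359 ± 29.7 CPM in controls. The FNBP4 knockout call was lost when control hgRNA 1 replicate 2 (adjusted p = 0.0796), either control hgRNA 2 library (0.053 for replicate 1 and 0.0586 for replicate 2) or knockout replicate 1 (0.384) was left out. PLAT was near controls where SERPINB2 was lowest, at 321 ± 20.8 CPM in the PTC exon deletion (adjusted p = 0.13) and 368.7 and 346.1 CPM in the HNRNPD deletion (adjusted p = 0.99). Its mean was 366 CPM in the DDX17 knockout (adjusted p = 0.907) and 417 CPM in the HDAC7 knockout (adjusted p = 0.178). The genes most like PLAT over the 17 groups were AP001258.4 (0.91), SIPA1L1 (0.91) and STS (0.90).

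PLAU codes for urokinase. It was lower in the FNBP4 knockout (169.5 and 201.0 CPM) and in the HDAC7 knockout (166.4 and 191.8 CPM), against 253.2, 320.1, 289.1 and 249.1 CPM in controls. The log2 fold changes were -0.58 ± 0.13 (SE, adjusted p = 0.00696) and -0.63 ± 0.13 (adjusted p = 0.00644), and no edited library overlapped the controls. Edited and control libraries did not overlap for 35.3% and 35.5% of all genes in these knockouts. These 2 groups are those labelled with the same Cas9 guide. Both calls were lost without knockout replicate 1 (adjusted p = 0.212 and 0.177), the replicate with few exon-intron reads, whose part in the result was not tested.

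In the FNBP4 intron deletion PLAU had 179.7, 185.1, 206.3 and 196.3 CPM, a log2 fold change of -0.53 given without a test. All lay below controls, where 19.8% of all genes had no overlap. In the DDX5 deletion the hgRNAs lay apart for PLAU as for PLAT, at 222.6 and 203.4 CPM under hgRNA 1 and 345.3 and 299.2 CPM under hgRNA 2. The first pair lay below the controls, and of the second 1 library lay among them and 1 above (adjusted p = 0.66 for the edit). PLAU averaged 227 CPM in the DDX5 knockout and 207 CPM in the DDX17 knockout, below every control, without passing the test (adjusted p = 0.173 and 0.106). Edited and control libraries did not overlap for 36.9% and 29% of all genes in these knockouts. After removal of trends with GC content and length the DDX17 knockout passed (adjusted p = 0.0281). Means in the DDX17, PTC exon, HDAC7 and HNRNPD deletions ran from 238 to 317 CPM, with adjusted p of 0.127 to 0.723. The genes most like PLAU were SLC25A23 (0.88), HLA-C (0.87) and ADGRB2 (0.87).

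PLAUR codes for the urokinase receptor, which is held to the membrane by a lipid anchor. Its group means ran from 53.5 CPM in the PTC exon deletion to 69.7 CPM in the FNBP4 knockout, against 61.7 ± 7.58 CPM in controls (SD, n = 4). Adjusted p ran from 0.25 to 0.961 over the 10 edits and libraries overlapped the controls in each. The highest value, 93.98 CPM, was that of DDX17 deletion hgRNA 1 replicate 2, whose 3 fellow libraries had 56.79, 53.75 and 59.37 CPM. This was also the shallowest library. The genes most like PLAUR were TBRG4 (0.87), CSK (0.86) and TYSND1 (0.86).

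SERPINE2 codes for protease nexin 1, a secreted serpin that inhibits thrombin, urokinase and tissue-type activator. It fell most in the DDX5 deletion, with 107.2 and 109.4 CPM under hgRNA 1 and 153.1 and 153.7 CPM under hgRNA 2, against 245.4, 238.6, 258.5 and 242.5 CPM in controls. The log2 fold change was -0.93 ± 0.08 (SE, adjusted p = 2.15e-08). The same hgRNA that gave the higher SERPINB2 gave the lower SERPINE2. The edited libraries of both hgRNAs lay below all controls, where 33.5% of all genes had no overlap. In the DDX5 knockout SERPINE2 had 238.3 and 248.0 CPM, at the level of the controls (adjusted p = 0.924).

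SERPINE2 was also lower in the PTC exon deletion, at 173.2, 199.6, 205.5 and 208.1 CPM (log2 -0.33 ± 0.08, adjusted p = 0.00307), and in the HNRNPD deletion, at 184.9 and 169.7 CPM (log2 -0.47 ± 0.09, adjusted p = 0.00208). In the FNBP4 intron deletion it had 182.2, 193.5, 219.2 and 209.3 CPM (log2 -0.30 ± 0.08, adjusted p = 0.0302), and in the HDAC7 knockout 181.1 and 210.5 CPM (log2 -0.33 ± 0.09, adjusted p = 0.0345). All libraries of these 4 edits lay below the controls. Edited and control libraries did not overlap for 33.8, 38.9, 19.8 and 35.5% of all genes in these comparisons, in the order given. Only the PTC exon call held in every alternative run for these 4.

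The HNRNPD call was lost without replicate 2 (adjusted p = 0.0671). The FNBP4 intron call was lost without any 1 of its 4 libraries (adjusted p of 0.169 and 0.0523 with replicate 1 or 2 of hgRNA 1 left out, and 0.0743 and 0.135 with replicate 1 or 2 of hgRNA 2 left out) or without control hgRNA 1 replicate 1 (0.0599) or replicate 2 (0.0837) or control hgRNA 2 replicate 1 (0.172). The HDAC7 knockout call was lost without its replicate 1 (0.439) or without the same 3 controls (0.0631, 0.0675 and 0.111). SERPINE2 averaged 215 CPM in the DDX17 deletion, below every control (adjusted p = 0.139), where 13.4% of all genes had no overlap. It averaged 226 to 262 CPM in the HDAC7 deletion and the other 2 knockouts, of DDX17 and FNBP4. The genes most like SERPINE2 were BNIP3 (0.87), KDELR3 (0.87) and PFKP (0.86).

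Deletion and knockout of the same gene were compared directly in the same fit. PLAT was higher in the DDX17 deletion than in its knockout by 0.63 ± 0.10 on the log2 scale (adjusted p = 0.000258, with 8.87% of genes called). SERPINE2 was lower in the DDX5 deletion than in its knockout by -0.92 ± 0.09 (adjusted p = 1.95e-06, 4.40% of genes). In HDAC7 the deletion had more PLAU (0.82 ± 0.13, adjusted p = 0.00104), PLAT (0.55 ± 0.10, adjusted p = 0.00201) and SERPINE2 (0.42 ± 0.09, adjusted p = 0.00978) than the knockout, where 6.02% of genes were called. The HDAC7 knockout carried a labelled guide to FNBP4, so this last comparison may not be one of 2 edits of the same gene.

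Within FNBP4, PLAT was higher in the intron than in the PTC exon deletion by 0.81 ± 0.08 (adjusted p = 6.47e-08, with 30.7% of genes called), and SERPINE2 did not differ past the threshold (0.03 ± 0.08, adjusted p = 0.781). None of SERPINE2, PLAUR and PLAT passed between intron deletion and knockout, where 1.91% of genes were called. Against the FNBP4 knockout, the PTC exon deletion had less PLAT (-0.51) and SERPINE2 (-0.30, adjusted p = 0.0155) and more PLAU (0.36, adjusted p = 0.0412), with 30.7% of genes called.

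Other genes of the plasmin system were read from a list of 47, of which 32 passed the filter on low counts. Plasminogen itself (PLG) did not, so its level is not given. In the order DDX5, DDX17, FNBP4 intron, PTC exon, HDAC7 and HNRNPD deletion, 2, 2, 1, 6, 3 and 3 list genes were called higher and 8, 3, 3, 5, 1 and 4 lower. In the DDX5, DDX17, FNBP4 and HDAC7 knockouts 5, 1, 2 and 3 were higher and 3, 1, 7 and 3 lower. The list's share called was 31.2, 15.6, 12.5, 34.4, 12.5 and 21.9% in the deletions in that order, against 16.9, 4.98, 3.53, 26.9, 1.90 and 8.87% of all genes. In the knockouts it was 25, 6.25, 28.1 and 18.8%, against 9.99, 1.76, 8.20 and 6.50% of all genes. With 32 genes, 1 call moves a share by several points. Its median log2 fold change ran from -0.17 in the FNBP4 knockout to 0.13 in the HNRNPD deletion, while the median of all genes stayed between -0.03 and 0.02.

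Among receptors that clear inhibitor and protease complexes, VLDLR was higher in the HDAC7 deletion (103 against 66.6 CPM in controls, adjusted p = 0.000717) and passed in no other edit. IGF2R was higher in the DDX5 (926 CPM) and DDX17 (939 CPM) deletions and lower in the PTC exon (587 CPM) and HNRNPD (546 CPM) deletions, against 706 CPM in controls. MRC2, an endocytic collagen receptor that associates with the urokinase receptor, was lower in the DDX5 deletion (202 CPM) and the knockouts of DDX5 (191 CPM) and FNBP4 (171 CPM), against 413 CPM in controls.

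Of 15 listed proteases downstream of plasmin, their inhibitors and substrates, 9 were tested. In the DDX5 deletion 0 were called higher and 3 lower, in the PTC exon deletion 3 and 0, and in the HNRNPD deletion 2 and 0. In the knockouts of DDX5, FNBP4 and HDAC7 these counts were 2 and 1, 1 and 3, and 1 and 1. The share called was 33.3, 33.3, 22.2, 33.3, 44.4 and 22.2% in that order, against 16.9, 26.9, 8.87, 9.99, 8.20 and 6.50% of all genes. In each of the other edits it was 11.1%, against 1.76 to 4.98% of all genes. MMP2, a gelatinase, averaged 1310 CPM in the DDX5 deletion, 1350 CPM in the DDX5 knockout, 1190 CPM in the FNBP4 knockout and 1180 CPM in the HDAC7 knockout, against 2450 CPM in controls, and passed in these 4. THBS1, a matrix protein that activates latent TGF-beta, was higher in all 4 knockouts (18800 to 22700 CPM) and the HDAC7 deletion (17300 CPM), against 13300 CPM in controls. TGFB1 was lower in the DDX5 (135 CPM), DDX17 (155 CPM) and FNBP4 intron (180 CPM) deletions and the FNBP4 knockout (156 CPM), and higher in the PTC exon (381 CPM) and HNRNPD (408 CPM) deletions, against 233 CPM in controls. TIMP3, a metalloproteinase inhibitor, was called higher at low levels in the PTC exon deletion (1.11 CPM) and the DDX5 knockout (2.24 CPM), against 0.396 CPM in controls.

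Of 10 listed genes of plasminogen, its receptors and activating proteases 6 were tested, and at most 2 were called in any edit. That was 33.3% in the PTC exon deletion and the DDX5 knockout, against 26.9% and 9.99% of all genes. S100A10, a plasminogen receptor subunit, was lower in the DDX5 deletion (48.6 CPM) and higher in the PTC exon deletion (101 CPM), the HNRNPD deletion (133 CPM) and the DDX5 knockout (110 CPM), against 74.9 ± 1.85 CPM in controls. The DDX5 deletion and knockout thus lay on opposite sides of the controls. Its partner ANXA2 was higher in the PTC exon deletion (6880 CPM) and the knockouts of DDX5 (7690 CPM) and HDAC7 (7470 CPM), against 5560 CPM in controls. ITGAV, the alpha subunit of vitronectin-binding integrins, was lower in the DDX5 (452 CPM), DDX17 (482 CPM) and FNBP4 intron (477 CPM) deletions and the FNBP4 knockout (465 CPM), against 643 CPM in controls. SERPINI1, neuroserpin and an inhibitor of tissue-type activator, was lower in the HNRNPD deletion (5.08 CPM) and the HDAC7 knockout (5.24 CPM), against 9.35 CPM in controls.

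Among 11 further clade B serpins, the family of SERPINB2 and SERPINB7, 3 passed the filter, and SERPINB8 was the 1 called. It was higher in the DDX5 deletion (61.3 ± 3.34 CPM, adjusted p = 0.000511), the FNBP4 intron deletion (53.4 CPM, adjusted p = 0.0456) and the DDX5 knockout (58.9 CPM, adjusted p = 0.0115), against 41.4 ± 4.38 CPM in controls. In the PTC exon and HNRNPD deletions it had 38.7 and 32.3 CPM and did not pass (adjusted p = 0.407 and 0.1).

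Genes of AP-1 and ETS factors were a second list, since AP-1 is a known activator of SERPINB2 and of urokinase. Of 12 listed, 9 were tested. In the order of edits above, with knockouts last, 1, 0, 0, 1, 0, 0, 1, 0, 0 and 0 were called higher and 1, 2, 0, 4, 0, 1, 2, 0, 2 and 0 lower. The share called was 22.2% in the DDX5 deletion, 22.2% in the DDX17 deletion, 55.6% in the PTC exon deletion, 11.1% in the HNRNPD deletion, 33.3% in the DDX5 knockout and 22.2% in the FNBP4 knockout, against 16.9, 4.98, 26.9, 8.87, 9.99 and 8.20% of all genes, with 9 genes behind each share. FOSL1, a FOS relative, was higher in the DDX5 deletion (306 ± 25.2 CPM, adjusted p = 0.0149) and the DDX5 knockout (332 CPM, adjusted p = 0.0217), against 224 ± 9.57 CPM in controls, and lower in the PTC exon deletion (log2 fold change of -0.47, adjusted p = 0.00757). ETS2 was lower in 5 edits, at 14.9 CPM in the DDX17 deletion and 16.3 to 19.3 CPM in the PTC exon and HNRNPD deletions and the knockouts of DDX5 and FNBP4, against 23.64 to 27.95 CPM in controls. ETV4 was lower in the DDX5 (3.23 CPM) and DDX17 (2.97 CPM) deletions and the knockouts of DDX5 (2.61 CPM) and FNBP4 (2.47 CPM), against 4.86 CPM. In the PTC exon deletion FOS had 1.20 CPM and ATF3 0.253 CPM, against 0.451 and 0.722 CPM in controls. JUN, JUNB and JUND have no introns and so no value here.

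The SERPINB2 transcript carries an AU-rich element in its tail, and proteins that bind such elements formed the last list, with 9 of 9 tested. In the DDX5 and HNRNPD deletions 1 each was called (11.1% of the list), and in the PTC exon deletion 3 (33.3%), with none in the other 7 edits. Of all genes 16.9, 8.87 and 26.9% were called in the DDX5, HNRNPD and PTC exon deletions, so with 9 genes these counts say little about the list. ZFP36L2, which promotes decay of such transcripts, was lower in the DDX5 deletion (4.19 ± 0.809 CPM, adjusted p = 0.0111) and higher in the HNRNPD deletion (18.9 ± 2.57 CPM, adjusted p = 0.00255), against 8.20 ± 1.79 CPM in controls. HNRNPD itself averaged 283 CPM in its own deletion (adjusted p = 0.188) and 311 CPM in the PTC exon deletion (adjusted p = 0.00705), against 230 CPM in controls.

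Splicing of the 6 genes was read from the same table. Of up to 131 of their events tested per comparison, none was called (limma, an adjusted p of 0.05 and a difference of 10 percentage points). Among all events none was called in 9 comparisons and 1 in the FNBP4 intron deletion, or 0.000351%. At an unadjusted p under 0.05 there were 59 member events in the DDX5 deletion of 130 tested, against 16.3% of all events. There were 23 in the DDX17 deletion, 32 in the FNBP4 intron deletion and 23 in the PTC exon deletion, against 6.20%, 7.85% and 10.7% of all events. There were 6 in the HDAC7 and 11 in the HNRNPD deletion, against 6.51% and 9.57%. In the knockouts of DDX5, DDX17, FNBP4 and HDAC7 there were 21, 17, 30 and 23, against 9.57%, 6.89%, 9.45% and 11.2%. Events of 1 gene share reads, so these counts are not of independent events. They are also not counts of splicing changes, since 20 of the 59 in the DDX5 deletion had the same percent in edited and control libraries and 51 differed by less than 1 point. In the DDX17, FNBP4 intron and PTC exon deletions and the FNBP4 knockout 17, 27, 17 and 19 differed by less than 1 point. The largest differences were 9.15 points in the DDX5, 13.9 in the DDX17, 12.1 in the FNBP4 intron and 9.26 in the PTC exon deletion. They were 7.66 points in the FNBP4 knockout and at most 4.03 in the other edits. For an event at 0 or 100% the tested ratio carries the pseudocount and moves with the gene's read number. In tests on simulated events this fit recovered no changes, so its count of 0 says nothing about stable splicing. Of 5 other forms of the fit, added after that result, only that with all 34 libraries was simulated. It recovered 2% of changes of 15 points and 51% of 30 points in the DDX5 deletion, and 0% and 12% in the DDX5 knockout. In each of the 5 forms the members' count with a difference of 10 points was also 0 in all 10 comparisons, which says little about stable splicing. Without that size, 6 to 17 member events passed the adjusted p in the DDX5 deletion (limma), against 0.131 to 1.19% of all events, of which 5 to 9 had no difference in percent and the largest differed by 8.01 points. With all 34 libraries in the fit 5 passed in the FNBP4 intron deletion, 2 in the PTC exon deletion, 3 in the FNBP4 knockout and 2 in the HDAC7 knockout, all with a difference under 1 point.

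The intron with the most spliced reads in controls was almost fully spliced in each gene. In PLAUR it was retained at 1.26 ± 0.299% in the DDX5 deletion, against 0.438 ± 0.42% in controls (SD, n = 4 each), and in SERPINE2 at 0.537 ± 0.142%, against 0.16 ± 0.133%. In PLAU it was at 0.308 ± 0.124%, against 0.962 ± 0.316%, in PLAT at 0.17 ± 0.0391%, against 0.13 ± 0.147%, in SERPINB2 at 0.242 ± 0.0765%, against 0%, and in SERPINB7 at 0.274 ± 0.549%, against 0.319 ± 0.637%. None passed the test (adjusted p of 0.0733 to 0.953). The second intron of PLAU, chosen after its values were seen, was retained more, at 19.5 ± 5.05% in the DDX5 deletion and 19.6 ± 6.24% in the PTC exon deletion, against 10.4 ± 3.02% in controls, again without passing (adjusted p = 0.15 and 0.403).

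Reads that cross from an exon into an intron give a second view of unspliced RNA per gene. For PLAUR they made up 4.78, 3.99, 3.55 and 4.30% of junction reads in the DDX5 deletion, against 2.09, 2.01, 0.848 and 1.22% in controls. PLAUR's spliced level did not differ there. SERPINB2 had 1.67 to 2.54%, against 0 to 0.871%, and PLAT 0.964 to 1.39%, against 0.454 to 0.773%, so that 3 members lay above every control, as did 21.1% of all genes tested. PLAU lay below every control (2.64 to 3.65%, against 3.81 to 5.46%), as did 1.44% of all genes. In the DDX17 and FNBP4 intron deletions PLAU lay above every control instead (5.79 to 6.56% and 6.04 to 6.56%), as did 5.43% and 2.85% of genes. In the FNBP4 knockout PLAU lay further below, at 0.323% in replicate 1 and 1.22% in replicate 2, as 27.5% of all genes lay below every control there, and replicate 1 was the library with the fewest such reads (1.91%). SERPINB2 lay above every control in that knockout (1.61% on 5 and 3.75% on 14 exon-intron reads), as did 1.41% of genes. No test was run on these shares.

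Single introns were then compared with the other introns of their gene, a comparison added after the reads of each intron had been seen. In the DDX5 deletion the most 5′ introns of SERPINE2 (chr2:224001923-224039098, minus strand) and PLAU (chr10:73911219-73911524, plus strand) carried few reads. The SERPINE2 intron had 2.28, 2.29, 2.19 and 3.41 CPM, against 13.1, 37.6, 19.5 and 9.82 CPM in controls, and changed beside the gene's other introns by -1.98 on the log2 scale (adjusted p = 2.73e-05 over 104852 introns). The PLAU intron had 2.98, 2.35, 3.32 and 3.47 CPM, against 7.41, 20.5, 12.7 and 6.04 CPM (-1.61, adjusted p = 6.33e-06). The second PLAU intron was called too (-1.13, adjusted p = 0.0246), but not without control hgRNA 1 replicate 2 or control hgRNA 2 replicate 1. These are 3 of 51 member introns, while 0.842% of all introns were called.

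In the PTC exon deletion the same 3 introns were called, against 1.25% of all introns. SERPINE2 changed there by -1.82 and PLAU by -1.79 at the most 5′ intron, and the second PLAU intron was lost without the same 2 controls. The FNBP4 intron deletion (2 of 51 called, against 0.135%) lost both calls without either of those controls. The HDAC7 knockout had 2 called, against 0.488%, and without either of those controls kept that of PLAU alone. The DDX5 knockout had that of PLAU, against 0.103%, and lost it without either. No member intron was called in the other 5 edits, where 0.00572% (DDX17 deletion), 0.0391% (HNRNPD deletion), 0.00668% (FNBP4 knockout) and 0% (HDAC7 deletion and DDX17 knockout) of all introns were. Leaving out edited libraries was not run for these counts.

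The control values of these introns differed several-fold among themselves and moved with a property of the whole library. Over 13458 genes with 4 or more introns, the most 5′ intron took 5.54, 7.21, 6.12 and 5.22% of spliced reads in the 4 controls, in the order used above. It took 4.79 to 4.99% in the DDX5 deletion, 3.86 to 4.97% in the PTC exon deletion and 6.87 and 7.17% in the HNRNPD deletion. Over 34 libraries the share of SERPINE2 reads at its most 5′ intron ran from 1.43 to 17.2% and had a correlation of 0.92 (as log2) with that measure, and the PLAU share ran from 0.778 to 7.36% with a correlation of 0.91. These libraries share groups and the measure, so the correlations are descriptions, and the part of this measure in the intron results was not tested. Over the 34 libraries the log2 CPM of whole genes had correlations with the measure of 0.57 for PLAU, 0.56 for PLAUR and 0.27 for SERPINE2. They were -0.13 for PLAT, -0.17 for SERPINB2 and -0.30 for SERPINB7. The part of the measure in these levels was not tested.

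**Figure D4:**
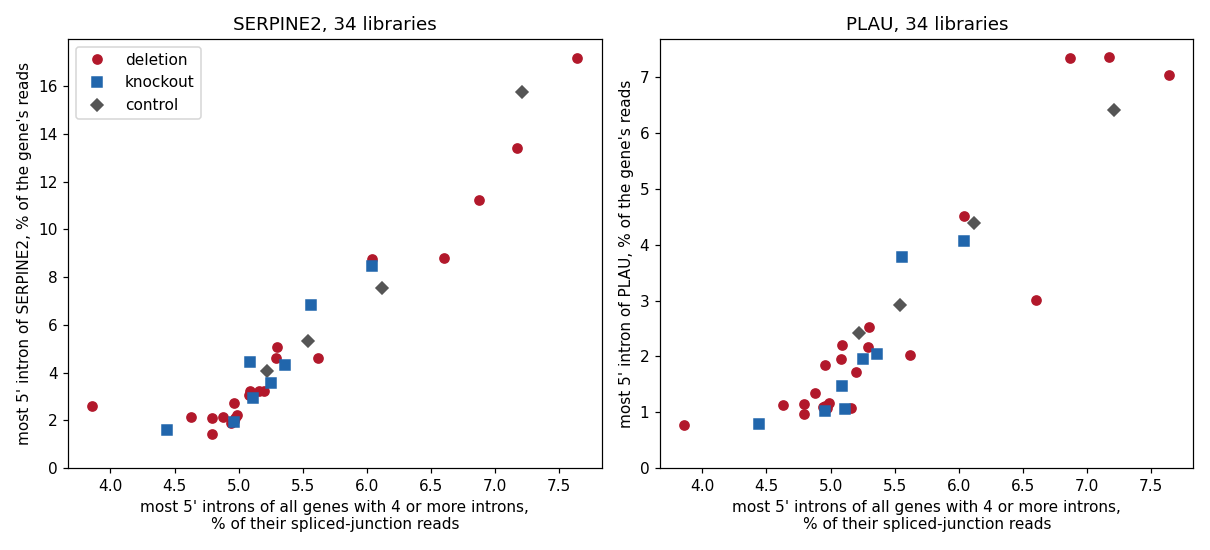
Share of a gene's spliced reads at its most 5′ intron, for SERPINE2 (left) and PLAU (right), against the same share over 13458 genes, for 34 libraries. Deletions, knockouts and controls lie along 1 rising band in each panel, with controls spread from 5.22 to 7.21% on the horizontal axis.

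The authors' deposited table, made per hgRNA with replicates combined, gave log2 fold changes of the same sign for the large differences. For SERPINB2 the authors' values were 3.353 and 2.42 for the 2 DDX5 deletion hgRNAs, -3.28 and -3.909 for the PTC exon hgRNAs and -3.486 for the HNRNPD deletion. For SERPINE2 the authors' deposited table had -1.116 and -0.7191 in the DDX5 deletion, and for PLAT 0.8398 and 1.29. In the HDAC7 knockout the authors' value for SERPINE2 was -0.08018, close to 0, where the junction reads gave -0.33. The authors' FDR (edgeR) for SERPINE2 was 0.8194 there. It was 0.2171 and 0.8757 for FNBP4 intron hgRNAs 1 and 2, and 0.04925 and 0.1927 for PTC exon hgRNAs 3 and 4. In the DDX5 and HNRNPD deletions it was below 0.05. For PLAT the authors' FDR was 0.07967 in the FNBP4 knockout and 0.08022 for FNBP4 intron hgRNA 1, and below 0.05 for the other hgRNAs of its called edits.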

How the data were processed

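Total RNA of 34 libraries was sequenced. In the deposited table of splicing events, each percent is an inclusion or retention level by vast-tools with the reads behind it, per the file headers, in 1 column per library. A second deposited table holds the authors' RPKM, log2 fold changes and FDR per hgRNA with replicates combined, per the file headers. Salmon 1.10 and edgeR are named for expression, per the submitters' processing notes. The aligner is not given in the sources used here.

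No counts per gene and library were used from the authors, so gene levels were built from the percent table. Its 19680900 junction counts of introns (100% whole numbers) were summed per gene, which leaves out genes without introns and any read inside an exon. 12081 of 29324 genes with at least 10 reads in 2 libraries, as scaled to depth, and 15 in all were tested. Counts were scaled by trimmed mean of M values and tested with limma 3.58.1 (voom, R 4.3.3) in 1 fit of 17 hgRNA groups with 17 residual degrees of freedom. The mean over an edit's hgRNAs was compared with that over the 2 control hgRNAs, with Benjamini-Hochberg adjustment over all genes. Depth was 12353936 to 20233610 junction reads per library. As nothing says that duplicates came from separate cultures, p-values measure the spread between duplicates of the same hgRNA, which may be technical. Standard errors come from that fit. Neither holds the spread between the hgRNAs of an edit, so both can understate the uncertainty of an edit. In the DDX5 deletion hgRNAs 1 and 2 gave log2 fold changes of 0.853 and 1.308 for PLAT and -1.184 and -0.682 for SERPINE2.

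For splicing, events with 20 reads or more were tested as log2 ratios with a pseudocount of 1 (limma). Introns were tested against the other introns of their gene (limma's diffSplice), which was added after the values were seen. Exon-intron shares used genes with 20 reads or more in each library compared. The fits were tested on simulated data, where the gene fit recovered changes and the event fit did not. Likeness was measured over 9460 genes with a mean of at least 2 on the log2 CPM scale. Promoters are RefSeq's (GRCh38.p14), and guides were matched exactly to GENCODE v29 transcripts on GRCh38, so a guide in an intron or between genes can have no match. Python 3.11.15, numpy 2.4.6 and matplotlib 3.10.9 were used.

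The members, the gene lists and the tests were chosen with earlier results of these data known. Named are all members, the 8 genes most like SERPINB2 and the 3 most like each other member. From the lists, those named are up to 3 called genes per comparison and direction with the largest change and no overlap with the controls, together with the other calls of the same genes. Some genes of the lists are counted but not reported here by name. Alternatives were another test on log2(CPM + 1), no filter on low counts, removal of trends with GC content and length (known for 11686 genes, 96.7%), each control hgRNA alone, edited and control libraries fitted alone, a replicate block, and leaving out each library. 2 further library columns that match no sample were not used. No 2 libraries held identical values.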

Additional observations from a re-analysis of the deposited data

Results flagged for a closer look

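Among groups of 4 libraries, SERPINB7 at 3.276 CPM in FNBP4 PTC exon hgRNA 3 replicate 1 and PLAUR at 93.98 CPM in DDX17 deletion hgRNA 1 replicate 2 stood apart from the other 3 libraries of their edit. Chance flags about 1 in 20 such groups. The PLAUR library had the fewest reads and the highest share of exon-intron reads (5.90%), and their part in the value was not tested.

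Edits of 1 gene differed from each other, on the log2 scale, in the following. SERPINE2 was lower in the DDX5 deletion than in the DDX5 knockout (-0.915). PLAT was higher in the DDX17 deletion than in the knockout (0.626) and in the FNBP4 intron than in the PTC exon deletion (0.806). In the PTC exon deletion minus the FNBP4 knockout the differences were -0.304 for SERPINE2, 0.361 for PLAU and -0.513 for PLAT. In the HDAC7 deletion minus the knockout they were 0.422 for SERPINE2, 0.817 for PLAU and 0.552 for PLAT.

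For SERPINB2 and SERPINB7 every library of 1 edit lay above and every library of the other below the controls, and these differences were not tested. SERPINB2 differed by 2.789 between the DDX17 deletion and knockout and by 5.451 between the FNBP4 intron and PTC exon deletions. SERPINB7 differed by 1.471 and 2.126 in these pairs, and by -1.743 between the PTC exon deletion and the FNBP4 knockout.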

How the results depend on the processing

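No direction of a called member was reversed in any alternative run for gene levels. For list genes and introns only counts were rerun. The counts of tested members called (4, or 3 in the FNBP4 intron deletion) were 2, 1, 2, 1, 1 and 1 in the DDX5, DDX17, FNBP4 intron, PTC exon, HDAC7 and HNRNPD deletions and 1, 0, 2 and 2 in the knockouts of DDX5, DDX17, FNBP4 and HDAC7. Without the low-count filter the FNBP4 intron deletion and HDAC7 knockout had 1 each, and with control hgRNA 1 alone 1 each. With control hgRNA 2 alone the FNBP4 intron deletion had 1 and the FNBP4 and HDAC7 knockouts 0, and with edited and control libraries fitted alone the HDAC7 deletion and these knockouts had 0. After GC and length trend removal the DDX17 knockout had 1. Leaving out 1 library gave 1 to 2 in the DDX17, FNBP4 intron and PTC exon deletions, 0 to 1 in the HNRNPD deletion and 0 to 2 in the FNBP4 and HDAC7 knockouts.

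For SERPINB2, the test on log2(CPM + 1) gave -2.983 in the PTC exon and -2.752 in the HNRNPD deletion, a scale that shrinks changes of low genes.

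Plasmin system genes called were 4 in the FNBP4 intron deletion, against 2 without the filter, 0 with control hgRNA 2 alone and 10 with edited and control libraries alone. With control hgRNA 1 alone the HNRNPD deletion had 4 of 7. With control hgRNA 2 alone the DDX17, PTC exon and HDAC7 deletions had 1, 7 and 1, against 5, 11 and 4, the knockouts of DDX5, DDX17, FNBP4 and HDAC7 had 5, 0, 4 and 0, against 8, 2, 9 and 6, and the 3 small lists 8 calls, against 23. With edited and control libraries alone the DDX17 and HDAC7 deletions had 1 and 0, and the knockouts of DDX17, FNBP4 and HDAC7 had 0, 5 and 1. GC and length trend removal gave 13 in the DDX5 and 6 in the DDX17 knockout, and the log2(CPM + 1) test gave 1 in the DDX17 knockout. Leaving out 1 library gave 3 to 7 in the DDX17, 1 to 3 in the FNBP4 intron, 7 to 15 in the PTC exon, 3 to 6 in the HDAC7 and 4 to 7 in the HNRNPD deletion, 2 to 9, 0 to 2, 4 to 10 and 0 to 7 in those 4 knockouts, and 9 to 27 over the small lists. Member introns called ran from 2 to 3 in the DDX5, 0 to 1 in the DDX17 and HNRNPD, 0 to 2 in the FNBP4 intron and 2 to 5 in the PTC exon deletion, and 0 to 2 and 1 to 4 in the DDX5 and HDAC7 knockouts. The cause of these changes was not tested.

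Same-numbered replicates of different groups correlated above 0.1 in 37 of 136 pairs of groups (median -0.0189, highest 0.824). All 6 pairs of knockouts did (0.448 to 0.664), and so did hgRNA 1 of the controls, DDX17 and HDAC7 deletions among themselves (0.699 to 0.824), while knockouts with controls did in 4 of 8 pairs. The numbers thus go together within some sets of groups but not over all, and these sets include groups that were compared. In hgRNA 1 of the controls, DDX17 and HDAC7 deletions the most 5′ intron took 7.21, 6.6 and 7.64% of spliced reads in replicate 2. In replicate 1 it took 5.54, 4.96 and 6.04%. Those replicate 2 libraries also had the highest PLAU and PLAUR levels of their edit or of the controls, and a shared cause was not tested. With a replicate block 2, 1, 2, 1, 1, 1, 1, 0, 2 and 2 members were called, as without it, and 13 against 11 plasmin system genes in the PTC exon deletion. Counting error limits SERPINB2 most, where 17 to 37 reads stand behind a value.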
